A study of Homo sapiens with 12 samples.

Results

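Notch signalling genes were followed in ARPE-19, a cell line that was established from human retinal pigment epithelium (RPE). The set was given by name and holds 10 genes: the receptors NOTCH1, NOTCH2 and NOTCH3, the ligands JAG1 and JAG2, the receptor-modifying glycosyltransferase LFNG, and the transcriptional targets HES1, HES4, HEY1 and HEY2. Each matched 1 of the 40591 rows of the deposited table that carry a gene symbol. Of the 10, 9 were among the 15179 genes that passed the filter on low counts, and HEY2 was not. Poly(A) RNA was sequenced from 12 libraries in 4 groups of 3, all of ARPE-19 cells. The groups are WT, for which the labels name no open reading frame (ORF), and stable cells with GFP (a fluorescent reporter), GSTA4 (a glutathione S-transferase that conjugates aldehydes from lipid peroxidation) or OSK, read here as the reprogramming factors OCT4 (POU5F1), SOX2 and KLF4. RNA was taken once the ORF had been expressed for 4 days. Whether libraries of a group were separate cultures, and whether a line is a clone, is not stated in the labels. An ORF and other differences between lines therefore cannot be told apart, and p-values measure only the spread between these libraries, which may be technical.

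In Notch signalling a ligand on one cell binds a receptor on its neighbour. The receptor is cut by an ADAM protease and then within the membrane by gamma-secretase, and the freed intracellular domain joins the DNA-binding protein RBPJ and a Mastermind coactivator to switch on HES and HEY genes, which encode repressors. Fringe enzymes such as LFNG add sugar to the receptor and change which ligands it answers. In the developing eye the pathway is known for its roles in retinal progenitors and in the pigmented cell layers.

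HES1 and HES4 are the most abundant of the targets and went different ways in these libraries, so the 250 bases before their RefSeq transcription starts are shown, 5′ to 3′ on the strand of the gene, in the GRCh38.p14 build. HES1 lies on the plus strand at chr3:194135898-194136147 and HES4 on the minus strand at chr1:1000098-1000347. Capitals mark the core of the RBPJ site, GTGGGAA.
HES1: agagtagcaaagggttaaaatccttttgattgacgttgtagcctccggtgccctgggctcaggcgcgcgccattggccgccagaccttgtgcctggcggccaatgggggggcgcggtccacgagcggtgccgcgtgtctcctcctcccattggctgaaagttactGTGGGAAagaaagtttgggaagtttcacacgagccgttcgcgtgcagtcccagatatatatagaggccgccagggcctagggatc
HES4: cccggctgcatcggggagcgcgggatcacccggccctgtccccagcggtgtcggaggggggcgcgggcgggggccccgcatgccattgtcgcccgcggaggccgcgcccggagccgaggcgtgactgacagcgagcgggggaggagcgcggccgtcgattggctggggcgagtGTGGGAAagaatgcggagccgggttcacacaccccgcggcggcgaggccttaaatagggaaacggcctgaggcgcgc
The core stood 85 to 79 bases before the start of HES1 and 77 to 71 bases before the start of HES4, on the same strand as the gene in both. It lay inside the longest run of letters that both windows share, tGTGGGAAagaa, of 12 bases. Of the 10 genes, 9 matched the RefSeq promoter table, and LFNG had 2 starts, which made 10 windows; HEY1 is named only. Searched on both strands, the core was also found in the HEY2 window, on the opposite strand, and in no other window of the set, JAG1 included. It occurred in 1906 of all 35116 promoter windows of this length, or 5.43%. The POU octamer ATGCAAAT was in 0 of the 10 windows and in 1.63% of all windows. The KLF box GGGNGTGG was in the windows of NOTCH1, HEY2 and 1 of the LFNG starts and in 15.7% of all windows. No match of 1 motif overlapped a match of another in these windows. RefSeq starts used here can differ from the GENCODE gene positions given below. The windows of HEY2 and of 1 LFNG start lie inside the GENCODE span of their gene. Those of HES1, HES4 and JAG2 overlap theirs in part. A match describes these letters only.

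Totals ran from 12630675 to 17045454 reads, so the floor of 3 reads stood at 0.177 to 0.228 CPM (CPM being reads scaled by TMM to a common library size, the unit used throughout). Reads of the introduced genes matched the labels: GSTA4 stood at 396 to 430 CPM in its own line and at 4.41 to 22.5 CPM in the others, and POU5F1, SOX2 and KLF4 stood at 622 to 947 CPM in OSK and at no more than 2.67 CPM elsewhere. In GFP replicate 1, 27349 named genes had reads, and in the other libraries 19488 to 22073 did. WT replicate 1 differed from WT replicates 2 and 3 by a chi-square per gene of 15.0 and 17.5, against 2.54 between those 2. The RPE markers OTX2 and MITF had group means of 131 to 249 CPM, while RPE65, DCT, TTR and CRX had group means of at most 0.502 CPM. Some marker lists moved with the groups, and their part in the Notch results was not tested. The summed level of 8 neural progenitor markers moved little, at 183 to 195 CPM in WT and 176 to 181 CPM in OSK. That of 8 pluripotent stem cell markers was 2.65 to 4.71 CPM in GFP and 2.06 to 2.78 CPM in OSK. For 8 vascular smooth muscle and pericyte markers it was 826 to 908 CPM in GFP and 413 to 457 CPM in OSK. For 9 fibroblast and mesenchymal markers it was 846 to 925 CPM in GFP and 585 to 674 CPM in OSK. The summed level of 15 RPE markers was 2417 to 2655 CPM in WT, 2185 to 2518 CPM in GFP, 1570 to 1643 CPM in GSTA4 and 1386 to 1456 CPM in OSK. KRT8 alone went from a mean of 1245 CPM in WT to 842 CPM in GFP. Of the 11 RPE markers tested, 8 were called higher and 2 lower in GFP against WT (of all tested genes, 11% and 11.2%). In GSTA4 against GFP 1 was called higher and 8 lower (of all tested genes, 14.7% and 14.6%). In OSK against GFP 0 were called higher and 11 lower (of all tested genes, 23.1% and 22.8%). Against WT the calls were more mixed. In GSTA4 against WT 3 were called higher and 6 lower (of all tested genes, 19.7% and 19%). In OSK against WT 2 were called higher and 5 lower (of all tested genes, 22.7% each). The summed level of 10 proliferation markers was 139 to 155 CPM in WT, 290.2 to 299 CPM in GFP, 244 to 254 CPM in GSTA4 and 541 to 618 CPM in OSK. The summed level of 8 endothelial markers was 73.0 to 97.1 CPM in WT, 59.7 to 76.0 CPM in GFP, 36.6 to 39.8 CPM in GSTA4 and 24.4 to 27.8 CPM in OSK, most of it KDR. Within that list VWF had means of 0.249 CPM in WT, 1.28 CPM in GFP, 0.459 CPM in GSTA4 and 2.04 CPM in OSK, and PECAM1, CDH5, ERG, CLDN5 and TEK had group means of at most 0.394 CPM. In bulk RNA, fewer cells of a type and less RNA per cell cannot be told apart.

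**Figure D1:**
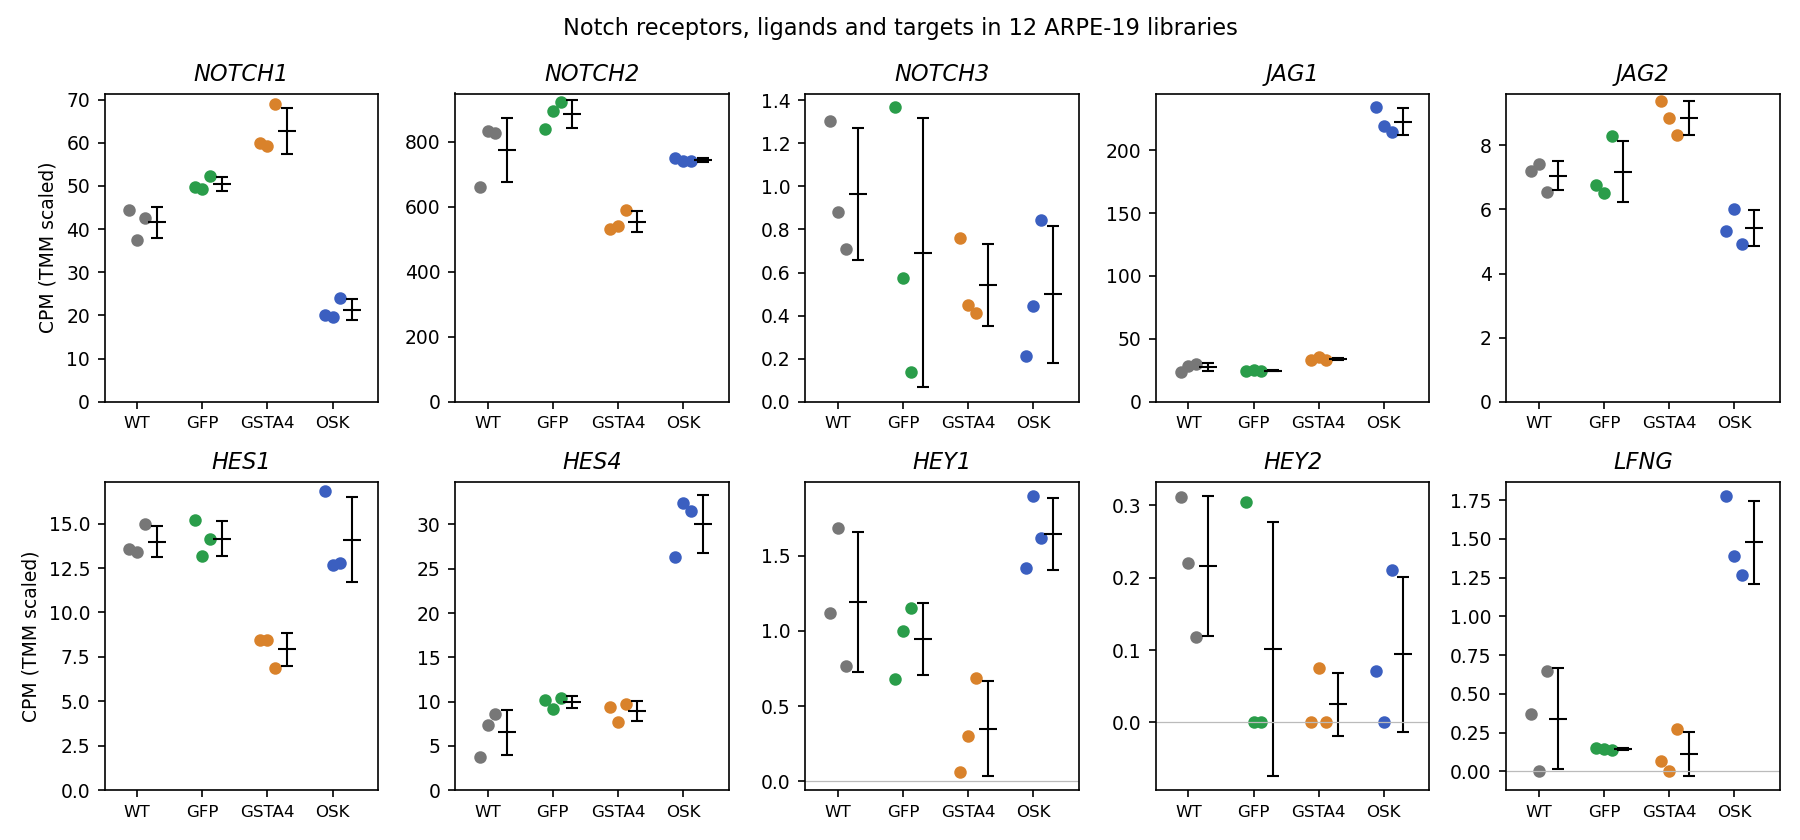
Level of each of the 10 genes in every library, as TMM-scaled CPM on a linear axis of its own, with the mean and SD (n = 3) of each group beside the points. JAG1, HES4 and LFNG stand highest in the 3 OSK libraries, NOTCH1 stands lowest there, and NOTCH2 and HES1 stand lowest in the 3 GSTA4 libraries.

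Among the receptors, NOTCH1 and NOTCH2 differed in how they moved. Against GFP, NOTCH1 rose in GSTA4 and fell in OSK, NOTCH2 fell in both, and NOTCH3 was low in all 4 groups. NOTCH2 gave most of the receptor reads in every library.

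NOTCH1, on chromosome 9 at 136494433 to 136545786 (minus strand, GRCh38, GENCODE release 29, as for all gene positions below), encodes the receptor best known from blood and vessel development. It measured 44.5, 37.5 and 42.5 CPM in the 3 WT libraries, 49.8, 49.3 and 52.4 CPM in GFP, 60.0, 59.2 and 68.9 CPM in GSTA4, and 20.04, 19.7 and 24.1 CPM in OSK. The 4 groups did not overlap, in the order OSK, WT, GFP and GSTA4 from low to high, and each of the 6 pairwise tests passed the threshold of adjusted p under 0.05. From a GFP mean of 50.5 ± 1.67 CPM (SD, n = 3), NOTCH1 fell to 21.3 ± 2.44 CPM in OSK, by 1.25 on the log2 scale (SE 0.0943, adjusted p = 8.92e-10). This and every adjusted p given here is from edgeR's quasi-likelihood test with Benjamini-Hochberg adjustment over all genes tested. NOTCH1 rose to 62.7 ± 5.39 CPM in GSTA4, a log2 change of 0.31 (SE 0.0874, adjusted p = 0.0102), which was not called without GSTA4 replicate 3 (0.24, adjusted p = 0.0719). The rise of GFP over WT was 0.28 (SE 0.0889, adjusted p = 0.0284), and it was not called once any 1 GFP library or WT replicate 2 was left out, with adjusted p from 0.0156 to 0.132 over the 12 fits that each left out a library. The widest step lay between the OSK and GSTA4 lines, where NOTCH1 was lower in OSK by a log2 change of -1.56 (SE 0.0935, adjusted p = 1.55e-11).

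NOTCH2, on chromosome 1 at 119911553 to 120069626 (minus strand), encodes a second receptor of the same family with broad expression in tissues. It measured 662, 832 and 828 CPM in WT, 837, 893 and 922 CPM in GFP, 530.5, 540.0 and 590.2 CPM in GSTA4, and 749, 742 and 739 CPM in OSK. The GSTA4 libraries lay below all others, and the OSK libraries lay within the range of WT. NOTCH2 fell in GSTA4 against GFP by 0.68 on the log2 scale (SE 0.0759, adjusted p = 8.06e-07) and against WT by 0.48 (SE 0.0758, adjusted p = 3.6e-05). It fell in OSK against GFP by 0.25 (SE 0.0755, adjusted p = 0.00996). The steps from WT to OSK (-0.06, SE 0.0755, adjusted p = 0.561) and from WT to GFP (0.19, SE 0.0755, adjusted p = 0.0737) did not pass the threshold. The latter was called under 4 alternatives, among them a fit without WT replicate 2 (adjusted p = 0.0476) and one without WT replicate 3 (0.0477). WT replicate 1 was the low WT library, and without it NOTCH2 was called lower in OSK than in WT (-0.16, adjusted p = 0.0331). Near-identical copies of NOTCH2 (5 rows, the NOTCH2NL genes and NOTCH2P1) held 69 to 149 reads a library in sum against 7204 to 14048 reads on NOTCH2, and how the counter split shared reads between them is not known.

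NOTCH3, on chromosome 19 at 15159038 to 15200981 (minus strand), is the receptor of vascular smooth muscle. It had 21, 12 and 12 reads in WT, 18, 8 and 2 with GFP, 12, 6 and 6 with GSTA4, and 3, 7 and 12 with OSK. All 4 groups overlapped, and no pairwise test passed the threshold (any difference among the 4 groups, adjusted p = 0.463). A difference was not detectable at this depth.

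Per kilobase of exon, the receptors ranked NOTCH2, NOTCH1, NOTCH4 and NOTCH3 in every group. The level of NOTCH2 was 46.1 CPM per kb in WT, 52.6 with GFP, 32.9 with GSTA4 and 44.2 with OSK. The level of NOTCH1 was 4.002, 4.86, 6.04 and 2.05 CPM per kb in the same order, and NOTCH3 and NOTCH4 stood at no more than 0.233 CPM per kb. As a share of the length-scaled reads on NOTCH1 to NOTCH4, NOTCH1 made up 8.06% ± 1.53 in WT, 8.42% ± 0.292 with GFP, 15.4% ± 0.408 with GSTA4 and 4.42% ± 0.501 with OSK (mean ± SD, n = 3). The receptor pool held the largest share of NOTCH1 in the GSTA4 libraries, where NOTCH1 was higher and NOTCH2 lower than in GFP, and the smallest in the OSK libraries.

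The ligands parted in OSK, where JAG1 rose 9.03-fold against GFP. JAG2 fell there by a small step, a call that was lost in 13 of 19 alternatives. In GSTA4, JAG1 rose by a smaller step and JAG2 did not pass the test.

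JAG1, on chromosome 20 at 10637684 to 10673999 (minus strand), encodes the transmembrane ligand Jagged1. It measured 23.7, 28.6 and 29.99 CPM in WT, 24.2, 24.98 and 24.7 CPM in GFP, 33.1, 35.2 and 33.5 CPM in GSTA4, and 235, 219 and 214 CPM in OSK. Each OSK library stood far above the other libraries, and each GSTA4 library stood above all GFP and WT libraries. From 24.6 ± 0.384 CPM in GFP, JAG1 rose to 223 ± 10.7 CPM in OSK (log2 fold change 3.18, SE 0.0794, adjusted p = 2.02e-17). Among the 15179 tested genes this was the 95th largest rise and the 10th largest F statistic in OSK against GFP. Measured from the other groups, the rise in OSK was 6.56-fold over GSTA4 (log2 2.71, SE 0.0765, adjusted p = 1.0e-16) and 8.11-fold over WT (log2 3.02, SE 0.0778, adjusted p = 2.87e-17). In GSTA4, JAG1 reached 34.0 ± 1.12 CPM, a log2 change of 0.46 over GFP (SE 0.083, adjusted p = 0.000242) and 0.31 over WT (SE 0.0813, adjusted p = 0.00508). The step from WT to GFP did not pass (-0.15, SE 0.084, adjusted p = 0.2), and without WT replicate 1 JAG1 was called lower in GFP (-0.26, adjusted p = 0.032).

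JAG2, on chromosome 14 at 105140981 to 105168824 (minus strand), encodes the other Jagged ligand. It measured 7.21, 7.41 and 6.54 CPM in WT, 6.76, 6.51 and 8.28 CPM in GFP, 9.39, 8.85 and 8.31 CPM in GSTA4, and 5.33, 6.01 and 4.92 CPM in OSK. OSK was the lowest group and GSTA4 the highest, with no overlap between either and the rest, although the lowest GSTA4 library barely cleared the highest GFP library. JAG2 fell in OSK against GSTA4 by 0.71 on the log2 scale (SE 0.158, adjusted p = 0.000896). Against GFP the fall in OSK was 0.41 (SE 0.161, adjusted p = 0.0453). That call was lost in 13 of 19 alternatives, with adjusted p from 0.0203 to 0.205, among them DESeq2 (0.0739) and the fit without GFP replicate 1 (0.0504). The GSTA4 values against GFP (0.30, SE 0.154, adjusted p = 0.159) and against WT (0.33, SE 0.153, adjusted p = 0.0956) did not pass.

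Within a library, JAG1 had 3.29 to 4.59 reads for each JAG2 read in WT, 2.98 to 3.84 with GFP, 3.53 to 4.03 with GSTA4 and 36.5 to 44.0 with OSK, a ratio that does not depend on the scaling between libraries. Of the length-scaled reads on 5 ligand genes (JAG1, JAG2, DLL1, DLL3 and DLL4), JAG1 made up 56.3% ± 4.36 in WT, 56.9% ± 5.64 with GFP, 64.1% ± 3.80 with GSTA4 and 94.6% ± 0.277 with OSK. Per kilobase, the level of JAG1 in OSK was 23.9 CPM per kb, below NOTCH2 and above NOTCH1 there, whereas in the other groups JAG1 was below both receptors.

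LFNG, on chromosome 7 at 2512529 to 2529177 (plus strand), encodes lunatic fringe. It had 6, 0 and 11 reads in WT, 2, 2 and 2 with GFP, 1, 0 and 4 with GSTA4, and 25, 22 and 18 with OSK. OSK was the group in which every library stood above the floor, at 1.78, 1.39 and 1.26 CPM, and LFNG passed the filter on low counts only through that group. Its difference is therefore given by its size, with no test. The summed reads, scaled to library size, were 10.3 times higher in OSK than in GFP and 4.05 times higher than in WT. These ratios rest on few reads outside OSK, and the WT libraries were uneven. LFNG was a small part of the fringe family in every group: of the length-scaled reads on LFNG, MFNG and RFNG it made up 5.77% ± 0.821 in OSK and a mean of at most 1.32% ± 1.24 in the others.

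The targets did not move as a block. HES4 rose 3.03-fold in OSK against GFP, where HES1 did not pass the test, and HES1 fell in GSTA4, where HES4 did not pass. HEY1 and HEY2 had few reads.

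HES1, on chromosome 3 at 194136145 to 194138732 (plus strand), encodes the classical repressor downstream of Notch, which other pathways also switch on. It measured 13.5, 13.4 and 15.0 CPM in WT, 15.2, 13.2 and 14.1 CPM in GFP, 8.44, 8.47 and 6.87 CPM in GSTA4, and 16.8, 12.6 and 12.8 CPM in OSK. The 3 GSTA4 libraries lay below the others, and WT, GFP and OSK overlapped one another. HES1 fell in GSTA4 from 14.2 ± 1.01 CPM in GFP to 7.93 ± 0.915 CPM, by 0.84 on the log2 scale (SE 0.141, adjusted p = 0.000124), and against WT by 0.82 (SE 0.14, adjusted p = 9.27e-05). The OSK value was -0.01 against GFP (SE 0.133, adjusted p = 0.967) and 0.01 against WT (SE 0.132, adjusted p = 0.967), each with a sign that turned under another scaling.

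HES4, on chromosome 1 at 998962 to 1000172 (minus strand), encodes a close relative of HES1 that mice lack. It measured 3.73, 7.33 and 8.60 CPM in WT, 10.2, 9.16 and 10.5 CPM in GFP, 9.39, 7.65 and 9.76 CPM in GSTA4, and 26.4, 32.4 and 31.5 CPM in OSK. The OSK libraries stood above all others, and WT replicate 1 was the lowest of the 12. HES4 rose in OSK from 9.93 ± 0.677 CPM in GFP to 30.1 ± 3.24 CPM (log2 1.598, SE 0.18, adjusted p = 3.1e-07). It was also called higher in GFP than in WT (log2 0.60, SE 0.202, adjusted p = 0.0381), a call that was lost without WT replicate 1 (0.31, adjusted p = 0.189) and without any 1 GFP library. GSTA4 against GFP gave -0.15 (SE 0.196, adjusted p = 0.614). Per library, HES1 had 1.74 to 3.63 reads for each HES4 read in WT, 1.35 to 1.49 with GFP, 0.704 to 1.11 with GSTA4 and 0.391 to 0.639 with OSK. Each OSK library thus held more HES4 than HES1 reads, and each WT and GFP library more HES1. Per kilobase of exon, mean HES4 and HES1 levels were 5.86 and 6.78 CPM per kb in WT, 8.88 and 6.87 in GFP, 7.99 and 3.84 in GSTA4, and 26.9 and 6.83 in OSK.

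HEY1, on chromosome 8 at 79764010 to 79767863 (minus strand), encodes a repressor of the HEY family. It had 18, 23 and 13 reads in WT, 9, 14 and 17 with GFP, 1, 4 and 10 with GSTA4, and 20, 30 and 23 with OSK. GSTA4 had the lowest mean and OSK the highest, and the GSTA4 libraries overlapped those of GFP but not those of WT or OSK. HEY1 had 73 summed reads in OSK against 15 in GSTA4, or 4.81-fold after scaling (95% interval 2.74 to 9.04, exact binomial, counting error only). It was higher in OSK than in GSTA4 by a log2 change of 2.23 (SE 0.538, adjusted p = 0.00176). That value was called in each of the 12 fits that left out a library but ran from 1.71 without GSTA4 replicate 1 to 3.18 without GSTA4 replicate 3. It fell in GSTA4 against WT by 1.74 on the log2 scale (SE 0.554, adjusted p = 0.0171), with values from -2.70 to -1.22 when each library was left out in turn, and the call was lost without WT replicate 2, GSTA4 replicate 1 or GSTA4 replicate 2. Against GFP neither GSTA4 (-1.44, SE 0.573, adjusted p = 0.0656) nor OSK (0.79, SE 0.466, adjusted p = 0.178) passed. Without GSTA4 replicate 3, the highest library of its group, the GSTA4 value was called (-2.39, adjusted p = 0.0174).

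HEY2, on chromosome 6 at 125747664 to 125761269 (plus strand), is known from heart and arterial development. It had 5, 3 and 2 reads in WT, 4, 0 and 0 with GFP, 0, 1 and 0 with GSTA4, and 1, 0 and 3 with OSK. These counts lie at or near the floor, and a difference was not detectable at this depth.

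The fold changes by comparison gather these results for 8 genes, the tested ones other than LFNG, which entered the test only because it is high in OSK. Against the GFP line, 4 of 8 were called in GSTA4, where 29.2% of all tested genes were called: NOTCH1 and JAG1 were higher (background 14.7%) and NOTCH2 and HES1 lower (14.6%). In OSK against GFP 5 of 8 were called, beside a background of 45.9%: JAG1 and HES4 were higher (background 23.1%) and NOTCH1, NOTCH2 and JAG2 lower (22.8%). With JAG2 lost, that count was 4 in 13 of 19 alternatives. The GFP and WT lines differed in 2 of 8, NOTCH1 and HES4, both higher in GFP (background 11%), beside 22.2% of all genes in either direction, and the count ran from 0 to 3 over the alternatives. Between OSK and GSTA4 7 of 8 were called, 5 higher in OSK (NOTCH2, JAG1, HES1, HES4 and HEY1; background 24.1%) and 2 lower (NOTCH1 and JAG2; background 23.8%), beside 47.8% of all genes in either direction. GSTA4 against WT called 5 of 8 (background 38.6%), of which 2 were higher (19.7%) and 3 lower (19%), and OSK against WT called 3 of 8 (background 45.4%), of which 2 were higher and 1 lower (22.7% each). An F test for any difference among the 4 groups called 7 of 8 (background 66.9%), NOTCH3 being the exception. With a log2 size of at least 1 also asked for, the counts were 0 of 8 in GSTA4 against GFP (background 5.7%), 3 in OSK against GFP (11.6%), 0 in GFP against WT (3.31%), 4 in OSK against GSTA4 (13.1%), 1 in GSTA4 against WT (7.82%) and 2 in OSK against WT (12.2%). Groups that did not overlap in CPM were counted for 5 of 8 genes in GSTA4 against GFP and 6 of 8 in OSK against GFP, against 42.3% and 54.7% of all tested genes. In GFP against WT they were 3 of 8 (background 34.6%), in OSK against GSTA4 7 of 8 (58%), in GSTA4 against WT 6 of 8 (49%) and in OSK against WT 4 of 8 (53.5%). The median size of the log2 fold change was 0.39 over the 8 genes and 0.22 over all tested genes in GSTA4 against GFP, and 0.61 and 0.31 in OSK against GFP. Comparisons that share the GFP libraries are not independent of each other. The genes were chosen with earlier results of these data known, so a count or size above its background is not independent support.

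**Figure D2:**
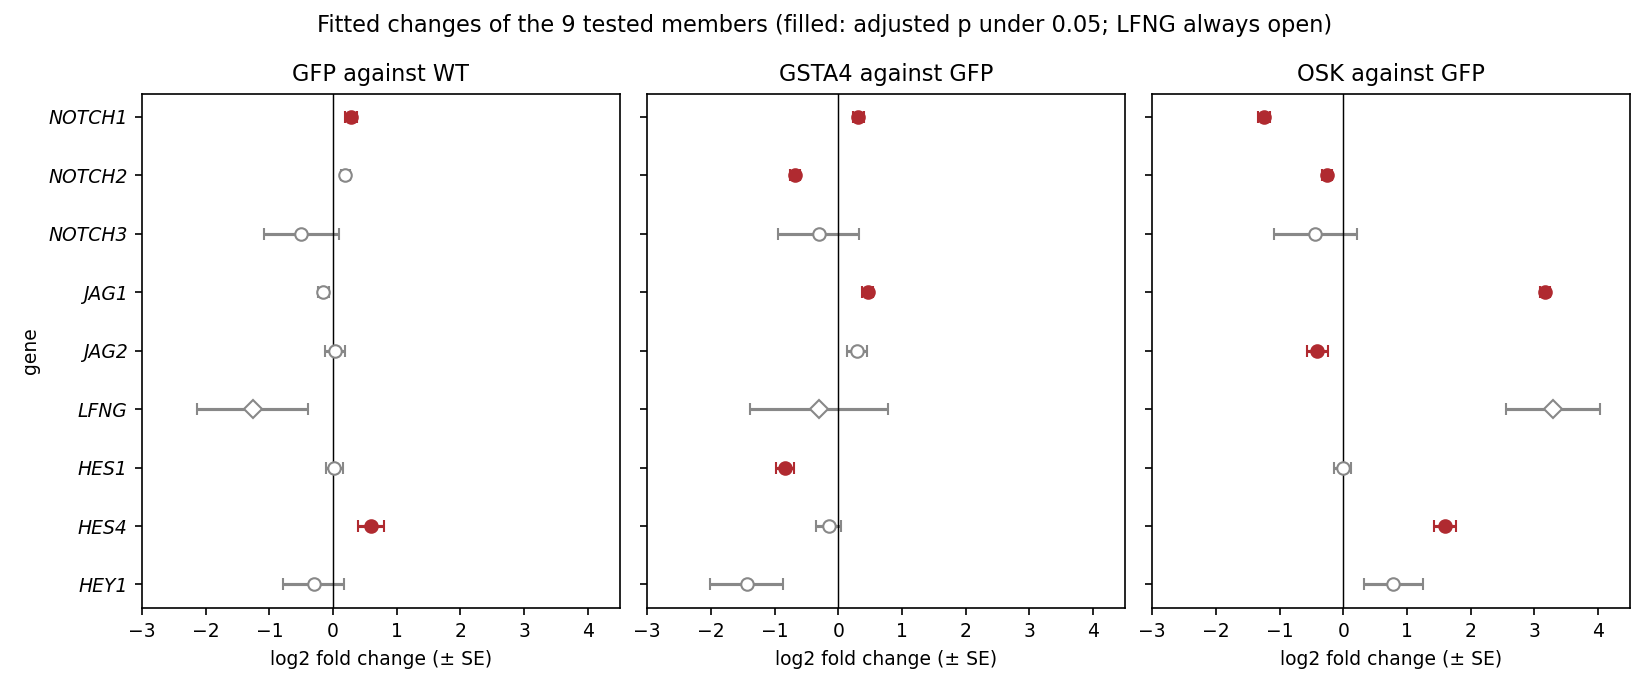
Fitted log2 fold changes (points) with their SE (bars) of the 9 tested genes in 3 comparisons, on a common axis. Filled red points passed adjusted p under 0.05, 2 in GFP against WT, 4 in GSTA4 against GFP and 5 in OSK against GFP, LFNG (diamond) is drawn open throughout because it was tested only through OSK, and LFNG, NOTCH3 and HEY1, which had the fewest reads, have the widest bars.

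**Figure D3:**
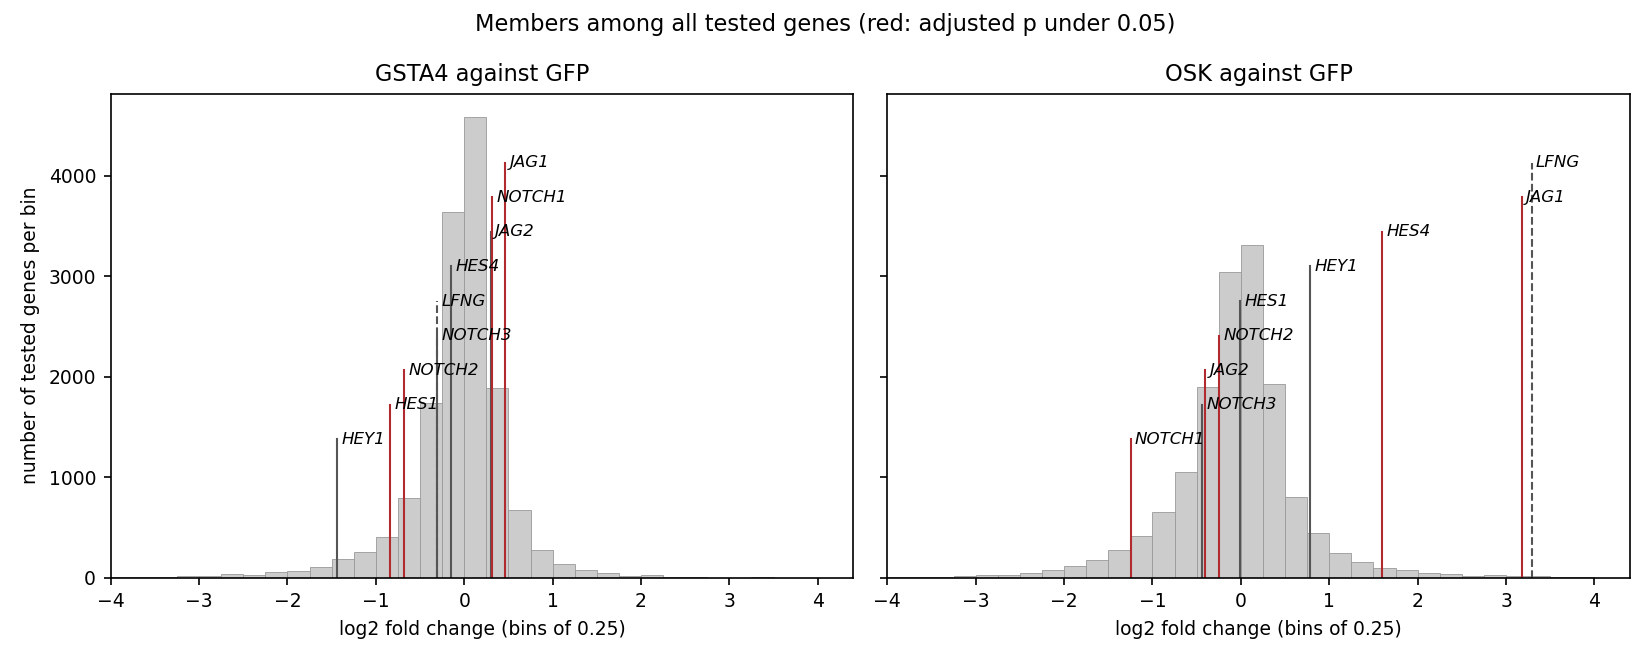
Number of tested genes (grey bars) by log2 fold change in bins of 0.25, for GSTA4 against GFP and OSK against GFP, with a vertical line at the value of each of the 9 genes. Red lines passed adjusted p under 0.05, LFNG is dashed because it was tested only through OSK, line heights only keep the names apart, and genes past the ends of the axis are not drawn; JAG1 and LFNG lie in the far right tail in OSK.

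Other genes of the pathway were described from lists of 81 genes, of which 71 were tested. These lists too were chosen with earlier results of these data known. In GSTA4 against GFP 9 of the 71 rose and 18 fell, and in OSK against GFP 20 rose and 17 fell, beside the backgrounds of 29.2% and 45.9% given above. By direction, the backgrounds were 14.7% higher and 14.6% lower in GSTA4, and 23.1% higher and 22.8% lower in OSK. In GFP against WT 11 rose and 11 fell (background 22.2%), and between OSK and GSTA4 27 were higher and 12 lower in OSK (background 47.8%). The median log2 fold change of the 71 was -0.08 in GSTA4 against GFP and 0.03 in OSK against GFP, where all tested genes had medians of 0.01 and -0.02. HES5, a target of neural progenitors, had 0 reads in all libraries, and DTX1, a ubiquitin ligase and Notch target, had at most 3.

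Of 6 other receptors and ligands tested, 1 rose and 2 fell in OSK against GFP (50% called, background 45.9%), and DESeq2 called 2 of the 6. The fall of NOTCH4, the fourth receptor (-0.96, adjusted p = 0.0486), was lost in 13 of 19 alternatives. That of CNTN1 (-0.82, SE 0.189, adjusted p = 0.00137) was kept in all 19. CNTN1 was also called higher in GFP than in WT (0.94, SE 0.19, adjusted p = 0.00145). DNER, a neuronal transmembrane protein described as a non-canonical ligand, measured 2.42, 0.880 and 0.589 CPM in WT, 0.608, 0.358 and 0.136 CPM in GFP, 1.65, 1.05 and 1.17 CPM in GSTA4, and 6.04, 8.09 and 10.96 CPM in OSK. Every OSK library lay above every other library, and the OSK rise over GFP was 4.51 on the log2 scale (SE 0.475, adjusted p = 1.24e-07), set against GFP libraries of 8, 5 and 2 reads. Its rise in GSTA4 (1.83, SE 0.577, adjusted p = 0.0213) was not called without GFP replicate 2, GFP replicate 3 or GSTA4 replicate 1. DLL1 and DLL3, the Delta-like ligands tested, passed in neither comparison with GFP.

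Of 6 genes of receptor glycosylation tested, 1 rose and 3 fell in GSTA4 against GFP (66.7% called, background 29.2%). In OSK against GFP edgeR and DESeq2 each called 0 of the 6 (background 45.9% in edgeR), with 1 at an unadjusted edgeR p under 0.05 (POGLUT2). RFNG, radical fringe, rose in GSTA4 from 26.7 to 38.5 CPM (log2 0.52, SE 0.0884, adjusted p = 0.000124), and OSK gave 0.02 (SE 0.0903, adjusted p = 0.853). POGLUT2, which adds glucose to the EGF-like repeats of the receptors, fell in GSTA4 by 0.77 (SE 0.108, adjusted p = 1.47e-05). It was called higher in GFP than in WT (0.43, SE 0.105, adjusted p = 0.00587). EOGT, which adds N-acetylglucosamine to such repeats, fell in GSTA4 against GFP by 0.58 (SE 0.102, adjusted p = 0.000189). The direct comparison of OSK with GSTA4 called 5 of the 6 (background 47.8%), with 4 higher in OSK (background 24.1%).

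Of 9 genes of receptor cleavage, 3 rose and 3 fell in OSK against GFP (66.7% called, background 45.9%). NCSTN, the substrate-binding subunit of gamma-secretase, rose from 182 to 289.6 CPM (log2 0.67, SE 0.0576, adjusted p = 5.79e-09). APH1B, a scaffold subunit of the same enzyme, fell in OSK from 36.2 to 18.3 CPM, by 0.99 (SE 0.0835, adjusted p = 4.98e-09), and rose in GSTA4 by 0.27 (SE 0.0782, adjusted p = 0.0138), a call lost without GFP replicate 2 (0.058) or GSTA4 replicate 3 (0.0506). PSEN2, a catalytic subunit at 2.83 CPM in GFP, fell in GSTA4 (-0.999, adjusted p = 0.0275) and OSK (-0.98, adjusted p = 0.0197), and these calls were lost in 3 and 4 of the 12 fits that each left out a library.

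In the nuclear complex, RBPJ itself rose in OSK against GFP from 71.5 to 82.4 CPM (log2 0.20, SE 0.0676, adjusted p = 0.0176), a call lost without OSK replicate 2 and with scaling by library size alone. MAML2, a Mastermind coactivator, fell in GSTA4 by 0.77 (SE 0.0843, adjusted p = 5.51e-07) and in OSK by 0.50 (SE 0.0832, adjusted p = 4.63e-05). Among 15 corepressors, 3 rose and 2 fell in GSTA4 (33.3% called, background 29.2%). In OSK 6 rose and 3 fell (60% called, background 45.9%). TLE3, a Groucho-type corepressor that HES proteins recruit, measured 23.5, 32.2 and 34.5 CPM in GFP, 14.5, 12.7 and 14.8 CPM in GSTA4, and 49.0, 46.8 and 45.4 CPM in OSK, with no overlap between the 3 groups. Against GFP, TLE3 fell in GSTA4 by 1.10 (SE 0.143, adjusted p = 5.42e-06) and rose in OSK by 0.64 (SE 0.13, adjusted p = 0.000391). Its WT mean was 19.4 CPM, and GFP itself was called higher than WT (0.64, SE 0.138, adjusted p = 0.00238). That call was kept in all 19 alternatives, so the size of the GSTA4 fall depends on a GFP level above that of WT. FHL1, whose splice form KyoT2 binds RBPJ, had the reverse signs, with 0.61 in GSTA4 (SE 0.0571, adjusted p = 5.31e-08) and -0.64 in OSK (SE 0.0589, adjusted p = 1.54e-08). FHL1 was also called lower in GFP than in WT (-0.34, SE 0.0572, adjusted p = 0.000268). Reads here do not separate its splice forms.

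Of 16 genes of endocytosis and turnover tested, 2 rose and 1 fell in GSTA4 against GFP (18.8% called, background 29.2%). In OSK 4 rose and 3 fell (43.8% called, background 45.9%). NEURL1B, a ubiquitin ligase that acts on ligands, had 16, 14 and 9 reads in WT, 42, 79 and 64 with GFP, 60, 52 and 56 with GSTA4, and 95, 122 and 132 with OSK. It rose in GFP against WT by a log2 change of 2.38 (SE 0.292, adjusted p = 9.49e-06) and in OSK against GFP by 0.84 (SE 0.223, adjusted p = 0.004), so WT was the low group and OSK the high one.

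Of 11 other targets tested, 1 rose and 6 fell in GSTA4 against GFP (63.6% called, background 29.2%). In OSK 5 rose and 4 fell (81.8% called, background 45.9%). Most of these genes also answer to other pathways. HES6, a relative that counters HES1, measured 5.54, 5.08 and 6.24 CPM in GFP and 12.6, 13.2 and 13.3 CPM in OSK, a log2 rise of 1.21 (SE 0.159, adjusted p = 2.67e-06). Its WT mean of 8.97 CPM lay between them, and GFP was called lower than WT (-0.67, SE 0.163, adjusted p = 0.00555). NT5E, the ecto-nucleotidase CD73, rose in OSK from 66.4 to 182 CPM (log2 1.45, SE 0.0716, adjusted p = 1.07e-12) and fell in GSTA4 by 0.61 (SE 0.0752, adjusted p = 2.88e-06). ID3, an inhibitor of helix-loop-helix factors best known as a BMP target, fell from 192 CPM in GFP to 77.4 CPM in GSTA4 (-1.31, SE 0.0865, adjusted p = 2.77e-10) and 77.6 CPM in OSK (-1.31, SE 0.0864, adjusted p = 1.1e-10). NRARP, a feedback inhibitor of the receptor's intracellular domain, was singled out after its values were seen, since its mean was under 1 CPM. It had 4, 10 and 7 reads in GFP and 28, 17 and 29 in OSK, a log2 change of 1.74 (SE 0.44, adjusted p = 0.00282), and 13, 12 and 16 reads in WT, from which OSK did not differ past the threshold (0.94, SE 0.401, adjusted p = 0.062).

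**Figure D4:**
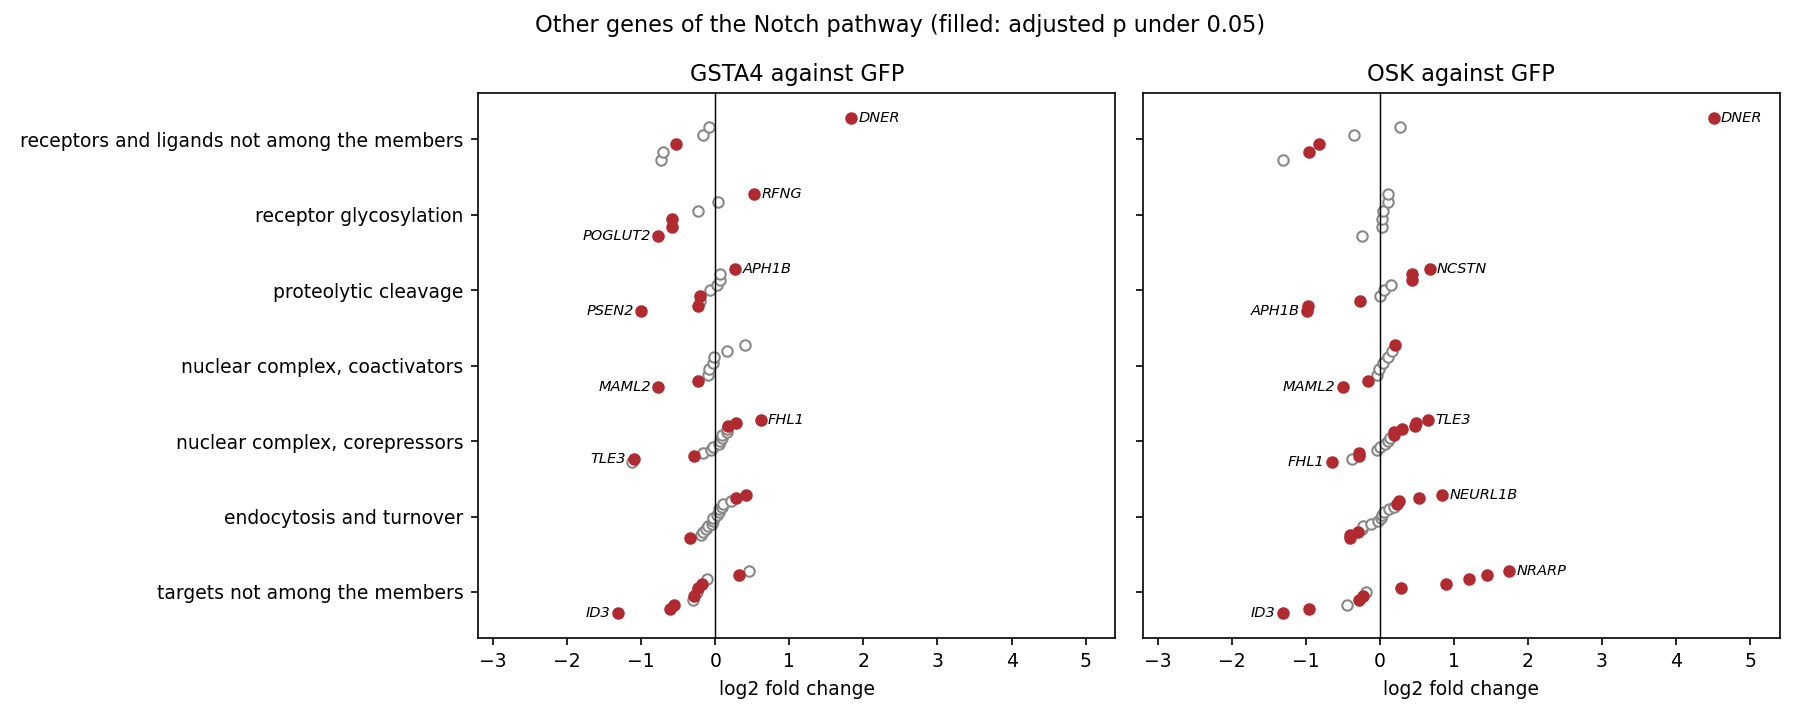
Log2 fold changes of the 71 tested pathway genes outside the 10, one row per list, in GSTA4 against GFP (left) and OSK against GFP (right). Filled red points passed adjusted p under 0.05, vertical offsets within a row only keep the points apart, and the glycosylation row holds 4 filled points on the left and 0 on the right.

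The genes whose levels followed those of each member most closely were found by Pearson's r of log2(CPM + 1) over the 12 libraries, among 9599 named genes with a mean of at least 10 CPM. These r are a description, since the libraries fall into 4 groups and share their scaling. JAG1 was followed by SH3GLB2 (r = 0.995), with a mean of 142 CPM in GFP and 324 CPM in OSK. HES4 was followed by AKAP12 (r = 0.979), at 57.0 CPM in GFP and 281 CPM in OSK, and by BCAT1 (r = 0.977). LFNG was followed by FERMT2 (r = 0.958) and ST7 (r = 0.957), and HEY1 by RPA2 (r = 0.939) and TIMM10B (r = 0.919). LFNG entered this search only through its reads in OSK, so its r mainly reflects OSK against the other groups. Genes low in the GSTA4 line followed NOTCH2 and HES1: TULP4 (r = 0.978) and LRRC2 (r = 0.976) for NOTCH2, and FBXO30 (r = 0.952) and RYBP (r = 0.951) for HES1. NOTCH1, lowest in OSK and highest in GSTA4, was followed by the copper transporter ATP7B (r = 0.983), at 27.2 CPM in GSTA4 and 15.0 CPM in OSK, and by ULK2 (r = 0.982). JAG2 was followed by EPB41L4A-AS1 (r = 0.963) and R3HCC1L (r = 0.954), and NOTCH3, the member with the lowest such r, by TLK2 (r = 0.854) and C2orf49 (r = 0.813).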

How the data were processed

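Each gene's raw read counts in 12 poly(A) libraries were used as the authors deposited them. The submitters' processing notes name STAR 2.7.1a, featureCounts 1.6.2 and the builds GRCh38, hg38, GRCm38 and mm10, with no role or order; the annotation release and the strand setting are not given in the sources used here, so a gene that overlaps another may hold reads of both. Rows without a symbol (20014 of 60605, 0.485% to 0.822% of reads) were left out. Counts of the 40591 named rows were filtered with filterByExpr, which kept 15179 genes, scaled by TMM and fitted with edgeR 4.0.16 (limma 3.58.1, R 4.3.3) as 4 group means over all 12 libraries. Contrasts used the two-sided quasi-likelihood F test with Benjamini-Hochberg adjustment within a contrast, called at adjusted p under 0.05. The common biological coefficient of variation was 7.91%. SE is the log2 fold change over the root of F. Levels per kilobase used GENCODE 29 exon lengths.

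Members and lists were chosen with earlier results of these data known. Of the other pathway lists, the text names, per list, the 2 largest rises and 2 largest falls among called genes with a mean of at least 1 CPM in OSK against GFP, GSTA4 against GFP or GFP against WT, or a part of these, with genes at 3 reads or fewer in all libraries as not detected. Alternatives were DESeq2 1.42.0, scaling by RLE or by library size alone, a filter of mean 1 CPM or none, a replicate block, only the 6 libraries compared, an added fold minimum of 1 on the log2 scale, and each library left out. NRARP was named outside the naming rule, after its values were seen, and was not followed through these alternatives. The scripts were tested on simulated data. One of the genes most like a member in pattern is not reported here.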

Additional observations from a re-analysis of the deposited data

Results flagged for a closer look

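The 7 genes listed here were called in opposite directions in GSTA4 and OSK against the same GFP libraries, with the difference between OSK and GSTA4 itself called by edgeR's quasi-likelihood test. Among the Notch receptors, ligands and targets this held for NOTCH1, which was lower in OSK than in GSTA4 by a log2 fold change of -1.56 (adjusted p = 1.55e-11). Among the other pathway genes named by the rule, the OSK minus GSTA4 difference was -1.25 for APH1B, -0.59 for CDKN1A, -1.26 for FHL1, 1.46 for ID1, 2.06 for NT5E and 1.75 for TLE3. Each such difference spans 2 changes already called in opposite directions. Its call therefore follows largely from that condition and is not separate support. Without GSTA4 replicate 3 the GSTA4 side was not called for NOTCH1 (adjusted p = 0.0719) or APH1B (0.0506), and without GFP replicate 2 it was not called for APH1B (0.058). The changes of ID1 against GFP and of CDKN1A in OSK against GFP were not followed through the alternatives. Neither were the OSK minus GSTA4 differences of the pathway genes.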

How the results depend on the processing

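Counts of members here are over the 8 tested genes other than LFNG. Over 19 alternative fits, 4 to 5 were called in GSTA4 against GFP and 4 to 5 in OSK against GFP. The counts were 7 throughout in OSK against GSTA4, 4 to 6 in GSTA4 against WT and 3 to 4 in OSK against WT. No called value changed sign. Counts of called members and of the 71 other pathway genes moved by over 1.5 times mainly under the fold minimum of 1 on the log2 scale, by its own construction. Members were then 0 in GSTA4 against GFP, 3 in OSK against GFP, 0 in GFP against WT, 4 in OSK against GSTA4 and 1 in GSTA4 against WT. Pathway genes were then 3 in GSTA4 against GFP, 5 in OSK against GFP and 2 in GFP against WT. They were 9 in OSK against GSTA4, 6 in GSTA4 against WT and 9 in OSK against WT. In GFP against WT the fit of only 6 libraries, with fewer samples, called 1 member and 14 pathway genes, and leaving out 1 library gave 0 to 3 members and 14 to 21 pathway genes; the member count was 0 without any 1 of the GFP libraries and 1 without OSK replicate 2, and 14 pathway genes were called without GFP replicate 2. Signs that turned belonged to values that were not called, and the cause was not tested. HES1 in OSK against GFP was 0.00073 with RLE scaling, 0.0103 with no filter and 0.00079 with DESeq2, in GFP against WT -0.0022 with no filter, and in OSK against WT -0.0591 with library size alone. Leaving out 1 library gave ranges of -0.82 to 0.63 for NOTCH3 and -1.83 to 0.20 for LFNG in GSTA4 against GFP. In OSK against GFP they were -1.01 to 0.50 for NOTCH3 and -0.14 to 0.0699 for HES1. In GFP against WT they were -1.44 to 0.0025 for NOTCH3, -0.084 to 0.10 for JAG2, -0.0371 to 0.067 for HES1 and -0.55 to 0.0117 for HEY1. They were -0.69 to 0.24 for NOTCH3 in OSK against GSTA4 and -0.13 to 0.0834 for HES1 in OSK against WT. Calls gained with another scaling or filter were NOTCH2 in GFP against WT with library size alone (adjusted p = 0.0361), JAG2 in OSK against WT with library size alone (0.028), HEY1 in GSTA4 against GFP with the mean filter (0.0486) and HES4 in GSTA4 against WT with no filter (0.0264), by edgeR's quasi-likelihood test. Library size alone moved the share of higher calls over all genes in OSK against GFP from 50.4% to 40.0%.

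Whether the replicate numbers mark a pairing is not stated in the labels and is not settled by these values. Of 18 same-numbered pairs across groups 3 had residual correlations above 0.1, all of them with WT replicate 1. Same-numbered pairs ran from -0.028 to 0.183 and the other pairs from -0.128 to 0.096. Of the 12 libraries, 8 correlated best with their own number. With the replicate block edgeR called 7270 genes in OSK against GFP against 6962 without it, and JAG2 there had an adjusted p of 0.0514. NOTCH2 in GFP against WT (0.0239) and HES4 in GSTA4 against WT (0.0429) were called under the block. NOTCH3, HEY1, HEY2 and LFNG are limited by depth, with at most 30 reads in any library.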
